A study of Mus musculus with 12 samples.

Results

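The middle and basal turns of the cochlea were compared within homozygous Gjb2 35delG/35delG mice at P14. The comparison used 4 of the 12 RNA-seq libraries of the study, chosen by their sample names: 2 biological repeats of the homozygous middle turn and 2 of the homozygous basal turn. Both turns carry the 35delG deletion on both alleles, so genotype does not differ between them. The homozygous mice were males of an almost pure C57BL/6J background that developed entirely from male embryonic stem cells by tetraploid complementation, and after cesarean delivery they were fostered by ICR females. Each whole cochlea was cut into apical, middle and basal pieces, and total RNA of each piece was sequenced. The other 8 libraries, 2 from the homozygous apical turn and 2 from each turn of purchased wild-type males of the same age, entered the shared estimate of spread. The numbers of mice, cochleae and stem cell lines behind a library are not given in the sources used here, so p-values measure the spread between these libraries only, and middle and basal libraries may come from the same animals.

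The cochlea is a spiral whose base responds to high and whose apex responds to low sound frequencies. Along its length run the same structures, namely the organ of Corti with its inner and outer hair cells and supporting cells, the tectorial membrane above them, the lateral wall with the stria vascularis and spiral ligament, and the spiral ganglion whose axons leave through the central core to form the auditory nerve. Gjb2 encodes connexin Cx26, which with Cx30 from Gjb6 builds the gap junctions that couple the non-sensory cells. A whole piece of a turn holds all of these tissues together with bone, blood vessels and marrow, so in such bulk samples fewer cells of a type and less RNA per cell cannot be told apart.

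The values are FPKM, read fragments corrected for transcript length and for the number mapped in each library, which were divided here by a scaling factor (0.985 to 1.06 in the 4 libraries). The FPKM of the 4 libraries summed to between 323394 and 385901, and between 13786 and 14703 genes reached 1 FPKM in each. These sums are not sequencing depths, which are unknown, so that no counting error can be given. Transcripts of the mitochondrial genome made up 7.64% to 12.1% of the FPKM. A gene was tested where 2 or more of the 4 libraries reached 1 FPKM, which held for 14795 of the 37432 genes in the table. Differences are given as middle minus basal turn on log2(scaled FPKM + 1), with the SE of the limma fit over all 12 libraries. On this scale the change of genes near 1 FPKM is smaller than their ratio of FPKM. The median difference over all genes tested was 0.04.

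Sensory and tectorial membrane genes were higher in the middle turn, and neuronal and myelin genes were higher in the basal turn. Genes were called where limma gave an adjusted p below 0.01 together with more than a 2-fold difference. By this rule 284 genes were called higher in the middle turn, 1.92% of those tested, and 554 were called higher in the basal turn, 3.74%. In all 838 the 2 middle libraries lay on one side of the 2 basal libraries. Without any test, both middle libraries lay above both basal libraries in 32.6% of the genes tested, and both basal libraries lay above both middle libraries in 29.4%. Of the called genes, 340 differed more than 4-fold and 80 more than 8-fold, the latter 49 in favour of the middle and 31 in favour of the basal turn. The genes that entered the test through the middle turn alone, with no basal library at 1 FPKM, numbered 605, of which 67 were called. Those that entered through the basal turn alone numbered 460, of which 94 were called.

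These calls lay close to the threshold, since the smallest adjusted p among all genes was 0.00274 by limma, and they rested on the spread shared with the other libraries. With only the 4 libraries in the limma fit no gene was called, although 4404 had an unadjusted p under 0.05, against 5390 with all 12 libraries. No gene was called without wild-type apical repeat 1, wild-type apical repeat 2 or homozygous middle repeat 1 either, with 4887, 4882 and 4322 genes at an unadjusted p under 0.05 in limma. Leaving out any one of the other homozygous libraries lowered the count to 40 without middle repeat 2 (31 higher in the middle turn and 9 in the basal turn), 200 without basal repeat 1 (144 and 56), 68 without basal repeat 2 (11 and 57), and 186 and 178 without apical repeats 1 and 2. The count was 479 and 484 without wild-type middle repeat 1 and 2, and 1586 and 1589 without wild-type basal repeat 1 and 2. Rescaling the libraries to equal sums of FPKM gave 824 calls, of which 20.75% were higher in the middle turn, against 33.89% of the calls with the median-of-ratios factors. Other settings moved this share the other way. It was 40.31% with FPKM as deposited, 45.34% with a pseudocount of 0.1 and 45.9% with 0.01, so the excess of basal calls depended on the processing.

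**Figure D1:**
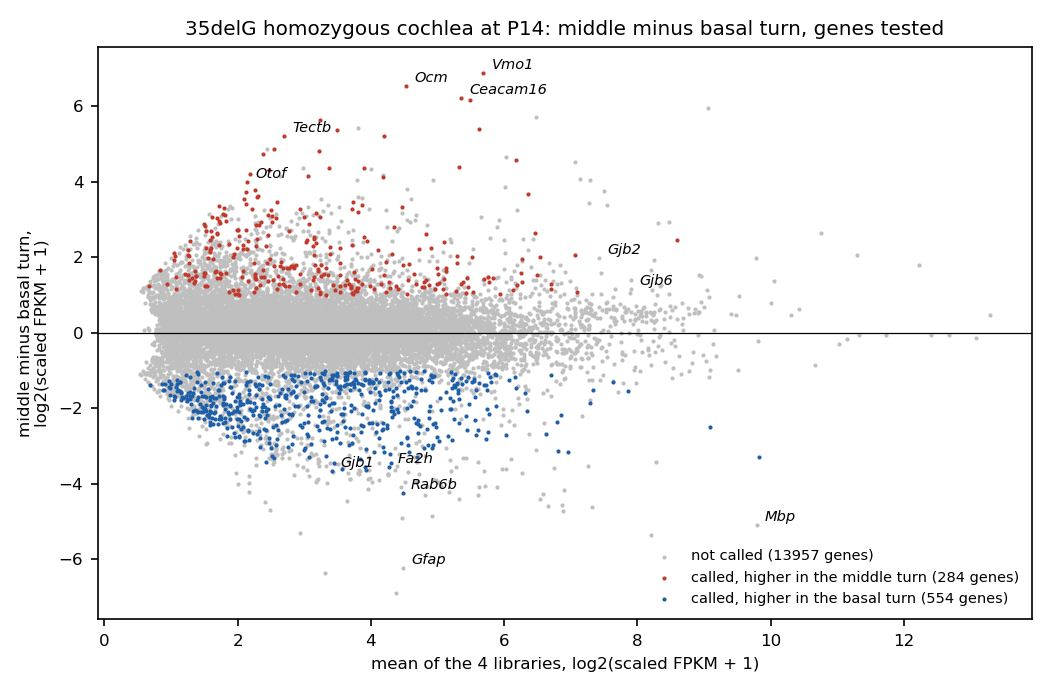
Difference between the turns (middle minus basal, log2(scaled FPKM + 1), vertical axis) against the mean of the 4 homozygous libraries on the same scale (horizontal axis) for the 14795 genes tested, each a point. Red points are the 284 genes called higher in the middle turn and blue points the 554 called higher in the basal turn. Gfap and Mbp lie far below 0 but are not among the calls.

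Marker genes of nerve tissue differed widely between the turns, and those of neurons were arranged in opposite order in the 2 genotypes. Sums are therefore given before the single genes. The turns were taken as labelled. Whether the turn labels of one genotype were exchanged, or the cuts differed between the genotypes, was not tested, and every middle minus basal value and every contrast of the genotypes rests on these labels. The 34 genes of a list of spiral ganglion neurons summed to 782 and 171 scaled FPKM in the 2 homozygous middle libraries and to 5218 and 5676 in the 2 basal libraries. In wild-type the sums were 3199 and 3695 in the middle turn but 125 and 1562 in the basal turn. Genes of oligodendrocytes and astrocytes, cells of the central nervous system, summed to 298 and 416 in the homozygous middle and 956 and 1290 in the homozygous basal libraries. In wild-type these sums overlapped between the turns, at 2232 and 210 in the middle and 386 and 821 in the basal libraries. The defining oligodendrocyte gene Mog stood at 0.0555 and 0.134 scaled FPKM in the middle and 68.8 and 114 in the basal libraries of the homozygotes. It was thus close to 0 in the homozygous middle turn and well expressed in the basal turn. Genes of neutrophils and marrow summed to 6935 in homozygous middle repeat 1 but to 383 in middle repeat 2, and to 140 and 191 in the basal libraries. The part that nerve tissue, central glia and marrow played in the gene differences below was not tested.

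By whole-transcriptome distance the 2 homozygous turns lay further apart than the repeats of either turn. On log2(scaled FPKM + 1) over the genes tested, the Euclidean distance was 69.8 between the 2 middle repeats and 71.1 between the 2 basal repeats, while the 4 distances between the turns ran from 118 to 142 with a mean of 128. The middle libraries lay nearest to the homozygous apical libraries, with a mean distance of 58.8. The basal libraries lay nearest to each other and, outside their own group, closest to the wild-type middle libraries, with a mean distance of 85.8. From their wild-type counterparts of the same turn, the middle libraries were 103 away and the basal libraries 125. In wild-type the 2 basal repeats were 99.7 apart, and the mean distance between the middle and basal turns was 92.8. The first principal component, with 45.65% of the variance, ranged from -49.3 and -22.6 in the homozygous middle to 66.8 and 86.2 in the homozygous basal libraries. The wild-type middle libraries lay at 40.6 and 21.9 and the wild-type basal libraries at -53.2 and 7.68, so the turns were placed in the opposite order.

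**Figure D2:**
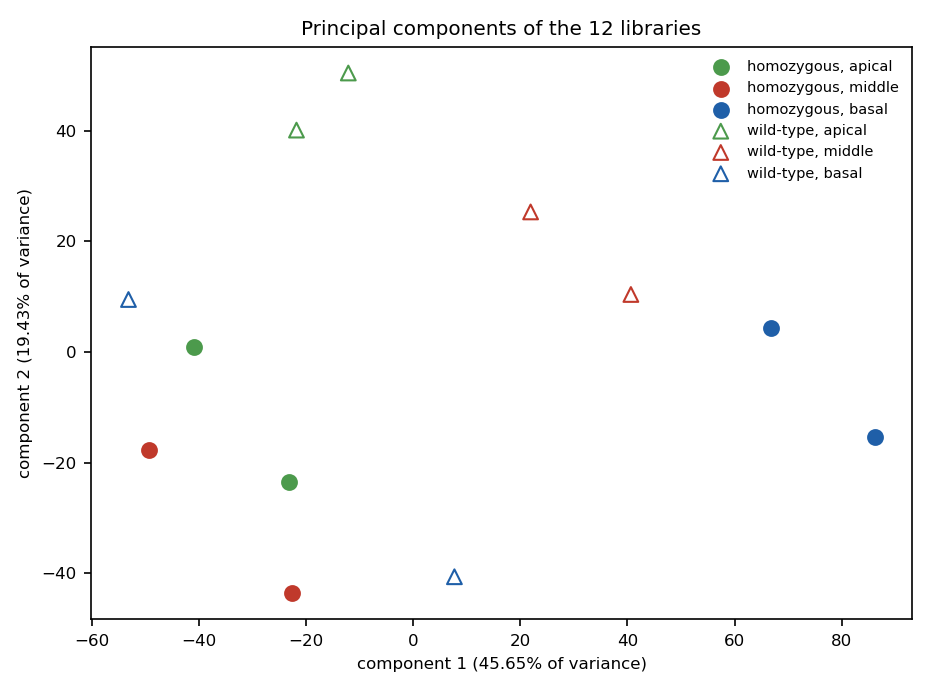
First and second principal component (45.65% and 19.43% of the variance) of all 12 libraries over the genes tested, with filled circles for homozygous and open triangles for wild-type mice, and colour for the turn. The 2 homozygous basal libraries stand alone at the right, and the 2 homozygous middle libraries lie at the left with the homozygous apical ones.

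Gjb2, the mutated gene (chr14:57098600-57104702 on the minus strand in mm10), was transcribed in both turns. Its level was 255 and 449 scaled FPKM in the middle libraries and 126 and 58.4 in the basal libraries. Every middle library was above every basal one, by 1.97 ± 0.47 (SE, n = 2 per turn) on the log2 scale, with an adjusted p of 0.0208 by limma, which missed the threshold of 0.01. A deletion of 1 base leaves a transcript that FPKM cannot tell from the normal one, so these levels do not check the genotype. Gjb6, its neighbour and partner in the gap junctions (chr14:57123303-57133611), stood at 284 and 446 in the middle and 165 and 154 in the basal libraries. The groups did not overlap, and the difference of 1.15 ± 0.28 had an adjusted p of 0.0212 by limma. In wild-type the difference had the opposite sign for both genes, at -0.78 for Gjb2 and -0.92 for Gjb6. The wild-type libraries of the 2 turns overlapped for Gjb2. They did not for Gjb6, at 124 and 176 in the middle and 291 and 270 in the basal turn. For Gjb6 the difference between the genotypes in the turn difference passed its own limma test (2.08, adjusted p = 0.00689), and for Gjb2 it did not (2.75, adjusted p = 0.0182).

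Among the 17 connexins and pannexins, 11 were tested, and the members that passed were those of myelinating glia. Gjb1, Cx32 of Schwann cell myelin, was at 2.24 and 1.80 scaled FPKM in the middle and 29.4 and 47.2 in the basal libraries. That made it 3.67 ± 0.67 higher on the log2 scale in the basal turn (adjusted p = 0.00861 by limma). Gjc3, Cx29 of the same cells, was at 8.67 and 12.1 in the middle and 61.1 and 62.7 in the basal libraries, with a difference of -2.48 ± 0.32 and an adjusted p of 0.00391 by limma. No connexin was called higher in the middle turn. Gja1, which encodes Cx43, overlapped between the turns, with 46.3 and 8.81 in the middle and 32.6 and 64.8 in the basal libraries. Over the 11 members the median difference was -1.33, against 0.04 over all genes tested. It was -2.26 without homozygous middle repeat 1, -0.88 without middle repeat 2 and 0.02 with no filter on low values.

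To show the sequence in front of genes that were called in opposite directions, the 250 bases before the start of 4 of them were taken from the RefSeq promoter table for GRCm38.p6, 2 myelin connexins higher in the basal turn and 2 hair cell genes higher in the middle turn. They are the named and called members of the Schwann cell and hair cell lists with a table entry at the gene start of the deposited table (0 bases away, and 2 bases for Gjb1). Capitals mark matches, on either strand, to ACAAAG or ACAATG (the letters of SOX factor sites), CAGNTG (an E-box of the kind read by ATOH1) and TATAAA.
Gjb1, chrX:101376126-101376375, plus strand: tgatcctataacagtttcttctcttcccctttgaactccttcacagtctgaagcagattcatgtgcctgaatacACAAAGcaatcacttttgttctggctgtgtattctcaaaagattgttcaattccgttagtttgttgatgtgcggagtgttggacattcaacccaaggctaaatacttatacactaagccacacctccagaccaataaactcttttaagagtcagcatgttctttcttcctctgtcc
Gjc3, chr5:137963099-137963348, minus strand: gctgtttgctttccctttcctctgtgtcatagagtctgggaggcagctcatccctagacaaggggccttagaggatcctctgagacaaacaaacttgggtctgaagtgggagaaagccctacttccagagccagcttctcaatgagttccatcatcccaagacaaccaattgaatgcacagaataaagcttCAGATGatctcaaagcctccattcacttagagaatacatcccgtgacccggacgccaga
Chrna10, chr7:102116714-102116963, minus strand: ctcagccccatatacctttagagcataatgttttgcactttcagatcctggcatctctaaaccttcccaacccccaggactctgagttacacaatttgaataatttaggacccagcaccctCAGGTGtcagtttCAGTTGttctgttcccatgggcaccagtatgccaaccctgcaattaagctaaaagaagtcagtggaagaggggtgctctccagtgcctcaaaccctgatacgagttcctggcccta
Stard10, chr7:101316836-101317085, plus strand: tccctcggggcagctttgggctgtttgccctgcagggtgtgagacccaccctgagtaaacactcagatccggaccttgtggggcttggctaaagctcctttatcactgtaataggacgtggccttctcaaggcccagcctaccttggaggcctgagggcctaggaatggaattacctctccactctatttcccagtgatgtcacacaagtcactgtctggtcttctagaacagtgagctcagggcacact
The Gjb1 sequence held 1 ACAAAG, 176 to 171 bases before the start, and Gjc3 held 1 CAGNTG. RefSeq holds 4 promoters for Gjb1, and only the one at the gene start is printed. Which of them its transcripts used in these libraries was not tested. Chrna10 held 2 CAGNTG matches, and Stard10 held none of the 4 motifs. Of all 32851 promoters of that length in the RefSeq table, 16.46% held ACAAAG, 10.69% ACAATG, 44.82% CAGNTG and 12.37% TATAAA, so such matches are common.

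Hair cell genes were mostly higher in the middle turn. Of 33 listed genes, 26 were tested, and 9 of them were called higher in the middle and 1 higher in the basal turn, against 1.92% and 3.74% of all genes. The median difference over the 26 was 1.23, and 18 had both middle libraries above both basal ones, against 32.6% of all genes. Of the 26 genes, 11 entered the test through the middle turn alone. The Otof gene (chr5:30367062-30461932, minus strand), which encodes otoferlin, the calcium sensor of transmitter release in inner hair cells, was at 14.1 and 19.2 scaled FPKM in the middle and 0.0979 and 0.108 in the basal libraries. Both basal libraries were thus close to 0, and the difference was 3.99 ± 0.42 (adjusted p = 0.00325, limma). In wild-type Otof was well expressed in both turns, with 9.39 and 25.1 in the middle and 32.1 and 20.6 in the basal libraries.

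Genes of outer hair cells showed the widest gaps. Ocm, which encodes oncomodulin, a calcium buffer of outer hair cells, was at 158 and 305 scaled FPKM in the middle and 3.14 and 0.387 in the basal libraries. The turns were separated by 6.52 ± 1.09 on the log2 scale (adjusted p = 0.00678, limma). In wild-type Ocm was lower in the middle turn, at 0.344 and 20.1 against 21.1 and 46.5 in the basal turn. Chrna10, a subunit of the receptor through which efferent nerve fibres act on outer hair cells, was at 5.51 and 12.2 in the middle and 0.0560 and 0.199 in the basal libraries, with a difference of 3.04 ± 0.58 and an adjusted p of 0.00992 by limma. The gene of the outer hair cell motor protein prestin, Slc26a5, chosen here after its values were seen, was at 7.76 and 11.7 in the middle turn, at 0.0507 in one basal library and listed at 0 in the other. Stard10 (39.2 and 44.9 against 12.3 and 15.3) differed less but passed as well, by 1.54 ± 0.22 and an adjusted p of 0.00504 in limma.

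Not all hair cell genes were so low in the basal turn. Myo6, which encodes a myosin at the base of stereocilia and is also made in other cells, was at 34.3 and 46.3 scaled FPKM in the middle and 24.7 and 17.3 in the basal libraries. The limma difference was 0.92 ± 0.26 with an adjusted p of 0.0381. Myo7a, a myosin of hair bundles and a common hair cell marker, chosen after its values were seen, was at 5.20 and 5.55 in the middle and 3.41 and 2.18 in the basal libraries (difference 0.77, adjusted p = 0.0656 by limma). The groups of both genes did not overlap, but neither passed. Dnm3, a dynamin that neurons also express, was the 1 listed gene called the other way, at 3.60 and 2.50 in the middle and 27.6 and 27.3 in the basal turn. Pvalb, made by hair cells and spiral ganglion neurons alike, was at 105 and 18.1 against 321 and 846 and did not pass (-3.54, adjusted p = 0.0502 by limma).

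Of 30 genes of the mechanotransduction machinery and the stereocilia, 22 were tested, 1 was called higher in the middle turn, against 1.92% of all genes, and none in the basal turn. Both middle libraries exceeded both basal ones in 17 of the 22, against 32.6% of all genes, and the median difference was 0.86. Of the 22, 5 entered the test through the middle turn alone. The called gene was Ush1c, which encodes harmonin, a scaffold of the hair bundle, at 16.6 and 33.6 scaled FPKM in the middle and 0.389 and 0.102 in the basal libraries. Its difference of 4.32 ± 0.38 had an adjusted p of 0.00274 by limma, equal to the smallest of all genes. Tmc1, a pore subunit of the transduction channel, was at 3.59 and 6.51 in the middle and 0.244 and 0.876 in the basal libraries (1.94 ± 0.52, adjusted p = 0.0317, limma). Myo15, the stereocilia motor myosin XV, was at 3.89 and 8.33 against 0.0420 and 0.0255 and narrowly missed the threshold (2.71 ± 0.54, adjusted p = 0.0113, limma). The groups were apart in both genes.

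Other genes of the hair bundle list were level. Rdx, which encodes radixin, was at 38.3 and 35.5 in the middle and 41.5 and 37.2 in the basal libraries, a difference of -0.09 ± 0.15. Cib2, a partner of TMC channels with wide expression, was at 27.4 and 34.6 in the middle and 28.4 and 35.5 in the basal libraries. Myo3a and Myo3b, class III myosins at stereocilia tips, did not reach the FPKM needed for the test. Myo3a was at 0.658 and 0.791 in the middle libraries and was listed at 0 in both basal libraries, and Myo3b was at 0.424 and 0.557 in the middle and 0.0777 and 0.123 in the basal libraries.

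Genes of the inner hair cell ribbon synapse were split. Of 19 genes, 17 were tested, and the median difference was -0.19. The middle turn alone brought 4 of the 17 into the test, and the basal turn alone 2. There were 2 calls in favour of the middle turn and 1 of the basal turn, against 1.92% and 3.74% of all genes. The 2 were Otof and Cabp2, which encodes a calcium-binding protein that acts on the hair cell calcium channel. Cabp2, at 11.5 and 15.9 in the middle and 0.167 and 0.343 in the basal libraries, differed by 3.54 ± 0.45 (adjusted p = 0.00386, limma) and was looked up after its values were seen. Rims2, a scaffold of release sites that neurons express too, was at 1.12 and 0.687 in the middle and 8.06 and 4.67 in the basal libraries, lower in the middle turn by 1.92 ± 0.24 with an adjusted p of 0.00384 in limma. Ctbp2, the source of the ribbon protein RIBEYE, was at 11.7 and 14.6 in the middle and 10.2 and 9.07 in the basal libraries and did not pass (0.41 ± 0.16, adjusted p = 0.0956, limma).

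Tectorial membrane genes were higher in the middle turn throughout. Of 14 genes, 13 were tested. Of these, 9 were called higher in the middle turn and none in the basal turn, against 1.92% and 3.74% of all genes. In all 13 tested genes both middle libraries lay above both basal libraries, against 32.6% of all genes. The median difference was 2.97. Of these 13, 5 entered the test through the middle turn alone. Ceacam16, a glycoprotein of the membrane's striated sheet, was at 281 and 442 scaled FPKM in the middle and 10.1 and 1.02 in the basal libraries. The difference was 6.22 ± 0.88 (adjusted p = 0.00474, limma). In wild-type it was at 1393 and 1168 in the middle and 2261 and 396 in the basal turn, so that it was abundant in all 4 wild-type libraries.

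Tectb, which encodes beta-tectorin, was at 29.7 and 49.7 scaled FPKM in the middle and 0.0851 and 0.0482 in the basal libraries of the homozygotes, 5.21 ± 0.89 apart (adjusted p = 0.00706, limma). In the homozygous apical libraries it was higher still, at 367 and 269. In wild-type it was near 0 in the middle turn (0.460 and 0.169), listed at 0 in one basal library and at 10.6 in the other. Otoa, which anchors the membrane to the spiral limbus, was at 60.1 and 83.8 in the homozygous middle and 1.06 and 0.478 in the basal libraries (5.37 ± 0.78, adjusted p = 0.00508, limma). Otog, the gene of otogelin, was at 23.3 and 39.8 against 0.126 and 0.0537, by 4.85 ± 0.34 and with an adjusted p of 0.00274 in limma. Every one of these genes was low in both basal libraries.

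Collagens of the membrane differed by less. Col11a1, a fibrillar collagen of cartilage and of the tectorial membrane, was at 102 and 81.1 in the middle and 27.4 and 17.5 in the basal libraries (2.0 ± 0.31, adjusted p = 0.00570, limma). Col11a2 was at 408 and 663 in the middle and 273 and 99.0 in the basal libraries, and with 1.65 ± 0.45 and an adjusted p of 0.0326 it did not pass limma. The largest difference of all called genes was that of Vmo1, listed with the membrane, the gene of a secreted protein named after the vitelline membrane of eggs (chr11:70513516-70514616, minus strand). Vmo1 was at 513 and 607 in the middle and 11.8 and 0.770 in the basal libraries, 6.88 ± 1.19 apart with an adjusted p of 0.00734 in limma.

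**Figure D3:**
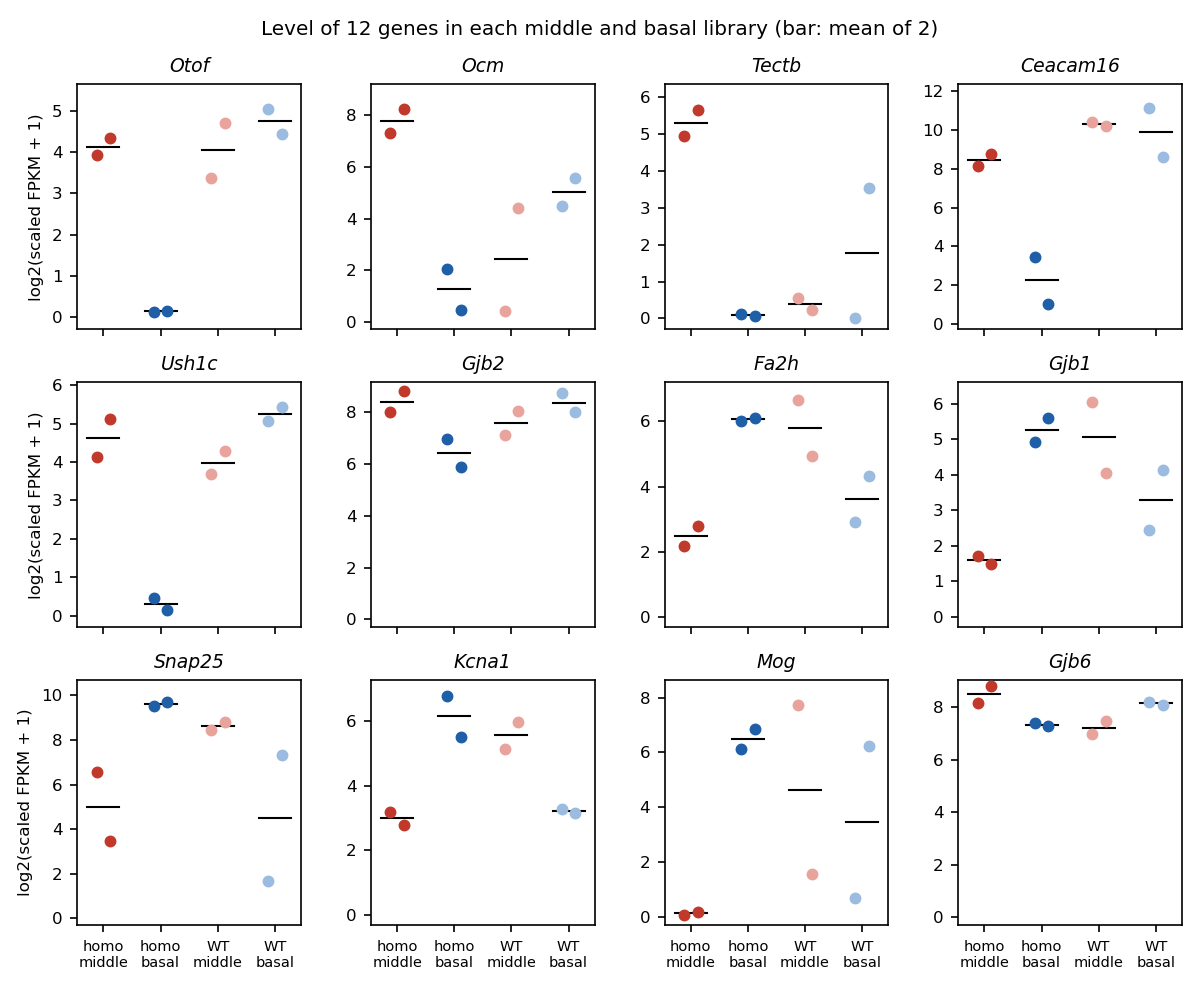
Level of 12 genes, log2(scaled FPKM + 1), in each library of the homozygous (homo) and wild-type (WT) middle and basal turns, 1 point per library and a bar at the mean of 2. Otof, Ocm, Tectb, Ceacam16 and Ush1c are low in both homozygous basal libraries, while Fa2h, Gjb1, Snap25, Kcna1 and Mog are high there.

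Supporting cell genes had calls in both directions. Of 29 genes, 27 were tested, 8 were called higher in the middle and 3 higher in the basal turn, against 1.92% and 3.74% of all genes, with a median difference of 0.70. Emilin2, an extracellular matrix protein of the basilar membrane, was at 385 and 325 scaled FPKM in the middle and 31.6 and 5.83 in the basal libraries (4.57 ± 0.60, adjusted p = 0.00392, limma). S100a1, a calcium-binding protein, was at 710 and 1156 in the middle and 221 and 122 in the basal libraries (2.46 ± 0.39, adjusted p = 0.00580, limma). Of the genes chosen after their values were seen, Fgfr3, a receptor of pillar and Deiters' cells, was at 16.6 and 25.2 against 4.33 and 3.78, and Jag1, a Notch ligand, at 8.18 and 12.5 against 1.70 and 2.01. All of these were higher in both middle libraries.

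Called the other way was Ngfr, the p75 neurotrophin receptor of supporting cells and Schwann cells, at 3.04 and 0.814 in the middle and 27.5 and 23.3 in the basal libraries (-3.28 ± 0.58, adjusted p = 0.00786, limma). Epyc, a small proteoglycan of supporting cells, was at 556 and 746 in the middle and 61.6 and 1.38 in the basal libraries. The 2 basal repeats differed so widely that the difference of 5.72 ± 1.24 did not pass (adjusted p = 0.0145, limma).

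Several of the other genes with the largest differences in favour of the middle turn are less tied to one cochlear cell type. Rnase1, a secreted ribonuclease, was at 343 and 418 in the middle and 9.97 and 1.52 in the basal libraries, and Mia, a small secreted protein of cartilage, at 278 and 361 against 22.7 and 1.43. The carboxylesterase gene Ces1d was at 91.8 and 132 against 6.57 and 0.207. P2rx2, an ATP-gated channel of the cells that line the endolymph, was at 40.4 and 58.1 against 1.88 and 0.0843. Fcrlb was at 52.6 and 81.8 against 0.404 and 0.280, and the predicted gene Gm5737 at 20.1 and 32.9 in the middle, at 0.0285 in one basal library and listed at 0 in the other. Their differences ran from 4.72 to 6.17 with adjusted p from 0.00484 to 0.00847 by limma, and every middle library lay above both basal ones.

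In the lateral wall, few genes passed. Of 20 marginal cell genes 19 were tested, and 14 had both middle libraries above both basal ones, against 32.6% of all genes. The 1 call among the 19 compares with 1.92% of all genes, and the median difference of 1.55 was 0.62 without homozygous basal repeat 2. That call was Heyl, a Notch target gene, at 10.5 and 15.2 in the middle and 4.73 and 1.69 in the basal libraries (1.80 ± 0.34, adjusted p = 0.00951, limma). Lrp2, the endocytic receptor megalin, was at 90.0 and 74.4 in the middle, and at 45.7 and 0.0950 in the basal libraries. The 2 basal repeats thus disagreed, and basal repeat 2 was the low one.

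The same library was low in genes of pigmented intermediate cells and of the spiral ligament. Dct, an enzyme of melanin synthesis, was at 226 and 472 in the middle, 157 in basal repeat 1 and 0.0644 in basal repeat 2. Otos, which encodes otospiralin of ligament fibrocytes, was at 3499 and 5039 in the middle, 845 in basal repeat 1 and 4.41 in basal repeat 2. Slc26a4, the anion exchanger pendrin, was at 37.8 and 28.9 in the middle, 22.3 in basal repeat 1 and 0.150 in basal repeat 2. None of the 3 passed in limma, with adjusted p of 0.229, 0.0464 and 0.103. Of the 12 intermediate cell genes tested 1 was called higher in the middle turn, against 1.92% of all genes. That was the growth factor receptor gene Met (13.9 and 17.5 against 5.44 and 2.57).

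Of the 23 genes of spiral ligament and limbus fibrocytes, 1 was called in each direction, against 1.92% and 3.74% of all genes. The median difference was 1.56, and 0.70 without homozygous basal repeat 2. Coch, the gene of the matrix protein cochlin, was at 3427 and 5453 scaled FPKM in the middle and 1112 and 424 in the basal libraries. The groups did not overlap, and the difference of 2.65 ± 0.60 had an adjusted p of 0.0168 by limma. Emcn, an endothelial sialomucin that is also on the fibrocyte list, was at 65.4 and 61.7 against 16.7 and 9.65 and was called (2.23 ± 0.25, adjusted p = 0.00346, limma). Of 19 genes of endothelial cells and pericytes it was the 1 that was called, against 1.92% of all genes called higher in the middle turn. Cldn5, a tight junction gene of endothelium, overlapped between the turns at 15.8 and 22.7 against 13.7 and 22.1.

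Spiral ganglion neuron genes were higher in the basal turn. Of 34 genes 33 were tested, none was called higher in the middle turn and 7 were called higher in the basal turn, against 3.74% of all genes. In all 33, both basal libraries lay above both middle libraries, against 29.4% of all genes. Their median difference was -3.41. Kcna1, a potassium channel of axons next to the nodes, was at 8.18 and 5.90 scaled FPKM in the middle and 109 and 44.6 in the basal libraries. The difference was -3.15 ± 0.43 (adjusted p = 0.00417, limma), and wild-type showed the reverse, with 34.3 and 61.3 in the middle and 8.79 and 7.93 in the basal turn.

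The most abundant neuronal genes differed by more but did not pass, and their middle repeats were far apart. Nefm, a neurofilament subunit, was at 58.9 and 7.78 in the middle and 597 and 618 in the basal libraries (-4.73 ± 1.56, adjusted p = 0.0624, limma). Nefh, another neurofilament subunit, was at 69.0 and 7.30 against 645 and 496. In these genes homozygous middle repeat 1 was well above repeat 2, and both lay below the basal libraries. Slc17a7, the glutamate transporter VGLUT1 of synaptic vesicles, was at 16.9 and 1.94 against 139 and 65.5.

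Genes of the synaptic vesicle and its SNARE machinery went with them. Of 36 genes 34 were tested, and 13 were called higher in the basal turn and none higher in the middle turn, against 3.74% and 1.92% of all genes, with a median of -2.79. Of the 34, 3 entered the test through the basal turn alone. Sv2a, a glycoprotein of the vesicle, was at 6.11 and 1.62 in the middle and 55.6 and 50.5 in the basal libraries (-3.65 ± 0.69, adjusted p = 0.00958, limma). Vamp1, a vesicle SNARE, was at 57.2 and 23.8 against 371 and 297 (-3.13 ± 0.57, adjusted p = 0.00850, limma). Snap25, the SNARE of the plasma membrane, was at 92.9 and 9.95 against 736 and 842 and did not pass, with an adjusted p of 0.0685 in limma. Both basal libraries were above both middle libraries in each of these genes.

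Markers of the spiral ganglion subtypes were tested in 18 of 18 cases with 1 call, higher in the basal turn, against 3.74% of all genes. The basal turn alone brought 4 of the 18 into the test. Calb2, which encodes calretinin and marks one subtype of type I neurons, was at 209 and 41.6 scaled FPKM in the middle and 1185 and 860 in the basal libraries (-3.42 ± 0.83, adjusted p = 0.0224, limma). Lypd1, of another subtype, was at 11.8 and 2.83 against 86.9 and 47.1, with an adjusted p of 0.0223 in limma. Calb1, which encodes calbindin, was at 1.46 and 0.659 in the middle and 6.10 and 55.7 in the basal libraries, so that its 2 basal repeats disagreed. The called gene was Grm8, a metabotropic glutamate receptor, at 0.606 and 0.116 against 3.96 and 3.06. Gata3, a transcription factor of ganglion neurons and of many non-neuronal cells of the cochlea, was the other way round at 22.5 and 42.1 against 7.74 and 1.83 (adjusted p = 0.0172, limma).

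Ion channels and receptors of neurons had calls as well. Of 32 voltage-gated potassium and sodium channel genes 25 were tested, and the median was -1.55. None was called higher in the middle turn and 4 higher in the basal turn, against 1.92% and 3.74% of all genes. Among the 4 was Kcna1, described with the neurons. Of the 25, 2 entered the test through the middle turn alone and 5 through the basal turn alone. Of 45 neurotransmitter receptor genes 19 were tested. Of these, 2 were called in favour of the middle turn and 5 of the basal turn, against 1.92% and 3.74% of all genes. Gria4, an AMPA receptor subunit, was at 3.67 and 2.85 in the middle and 25.8 and 16.7 in the basal libraries, lower in the middle turn by 2.36 ± 0.41 (adjusted p = 0.00771, limma). One of the 2 called higher in the middle turn was Chrna10, described with the outer hair cells. The middle turn alone brought 2 of the 19 into the test, and the basal turn alone 5.

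Myelin genes had the most calls of any list. All 30 genes of Schwann cells and myelin were tested, 16 were called higher in the basal turn, against 3.74% of all genes, and none higher in the middle turn, and the median difference was -2.34. Of the 30, 2 entered the test through the basal turn alone. Fa2h, which makes the hydroxylated lipids of myelin, was at 3.55 and 6.02 scaled FPKM in the homozygous middle and 63.1 and 68.2 in the basal libraries (-3.56 ± 0.57, adjusted p = 0.00590, limma).

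Mbp, shared by peripheral and central myelin, was more abundant and did not pass. This gene, which encodes myelin basic protein, was at 159 and 142 in the middle and 4033 and 6580 in the basal libraries (-5.09 ± 1.20, adjusted p = 0.0197, limma). In the homozygotes the repeats were close, but the wild-type values were spread, with Mbp at 11788 and 1153 in the middle and 327 and 3240 in the basal turn. S100b, which is on the list but also marks other glia and the lateral wall, was higher in the middle turn at 1432 and 2019 against 1031 and 416 and did not pass either, with an adjusted p of 0.133 in limma.

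Genes that mark glia of the brain moved in the same direction as the myelin genes without a call. All 18 genes of oligodendrocytes and astrocytes were tested, and 16 had both basal libraries above both middle libraries, against 29.4% of all genes. Their median was -3.05. Of the 18, 8 entered the test through the basal turn alone. Mobp, of oligodendrocytes, was at 0.776 and 1.05 in the middle and 192 and 266 in the basal libraries (-6.89 ± 2.37, adjusted p = 0.0696, limma), and Gfap, of astrocytes, at 1.80 and 1.37 against 148 and 250. In wild-type Mobp was at 638 in one middle library and 3.63 in the other, and at 1.16 and 175 in the basal libraries. The wild-type repeats of both turns thus disagreed. Of a list of brain neurons, 5 of 12 genes were tested and 1 was called higher in the basal turn, against 3.74% of all genes. That was Calm3, a calmodulin gene with wide expression (154 and 119 against 375 and 416).

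Of the 12 genes named for the largest differences in favour of the basal turn, 9 were on none of the 37 lists. Rab6b, a small GTPase of neuronal transport, was at 10.1 and 1.37 in the middle and 110 and 83.2 in the basal libraries, and with -4.24 ± 0.67 it was the largest called difference in this direction (adjusted p = 0.00573, limma). Adam23 was at 9.94 and 2.21 against 97.1 and 42.4, Cntn2, a cell adhesion protein of axons and myelin, at 1.34 and 0.143 against 20.1 and 13.6, and Mapk10, the neuronal JNK3, at 4.61 and 0.965 against 42.1 and 29.1. The tubulin-modifying enzyme gene Ttll7 was at 7.38 and 1.31 against 52.2 and 48.7, and Atp2b3, a calcium pump, at 1.96 and 0.159 against 26.1 and 11.7. Vat1l (3.37 and 1.62 against 27.9 and 58.5), Prkar1b (12.8 and 3.98 against 76.4 and 84.7) and Sgpp2 (5.67 and 2.03 against 49.4 and 39.8) completed the 12 with Sv2a, Gjb1 and Fa2h. In these genes each basal library was above both middle libraries.

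**Figure D4:**
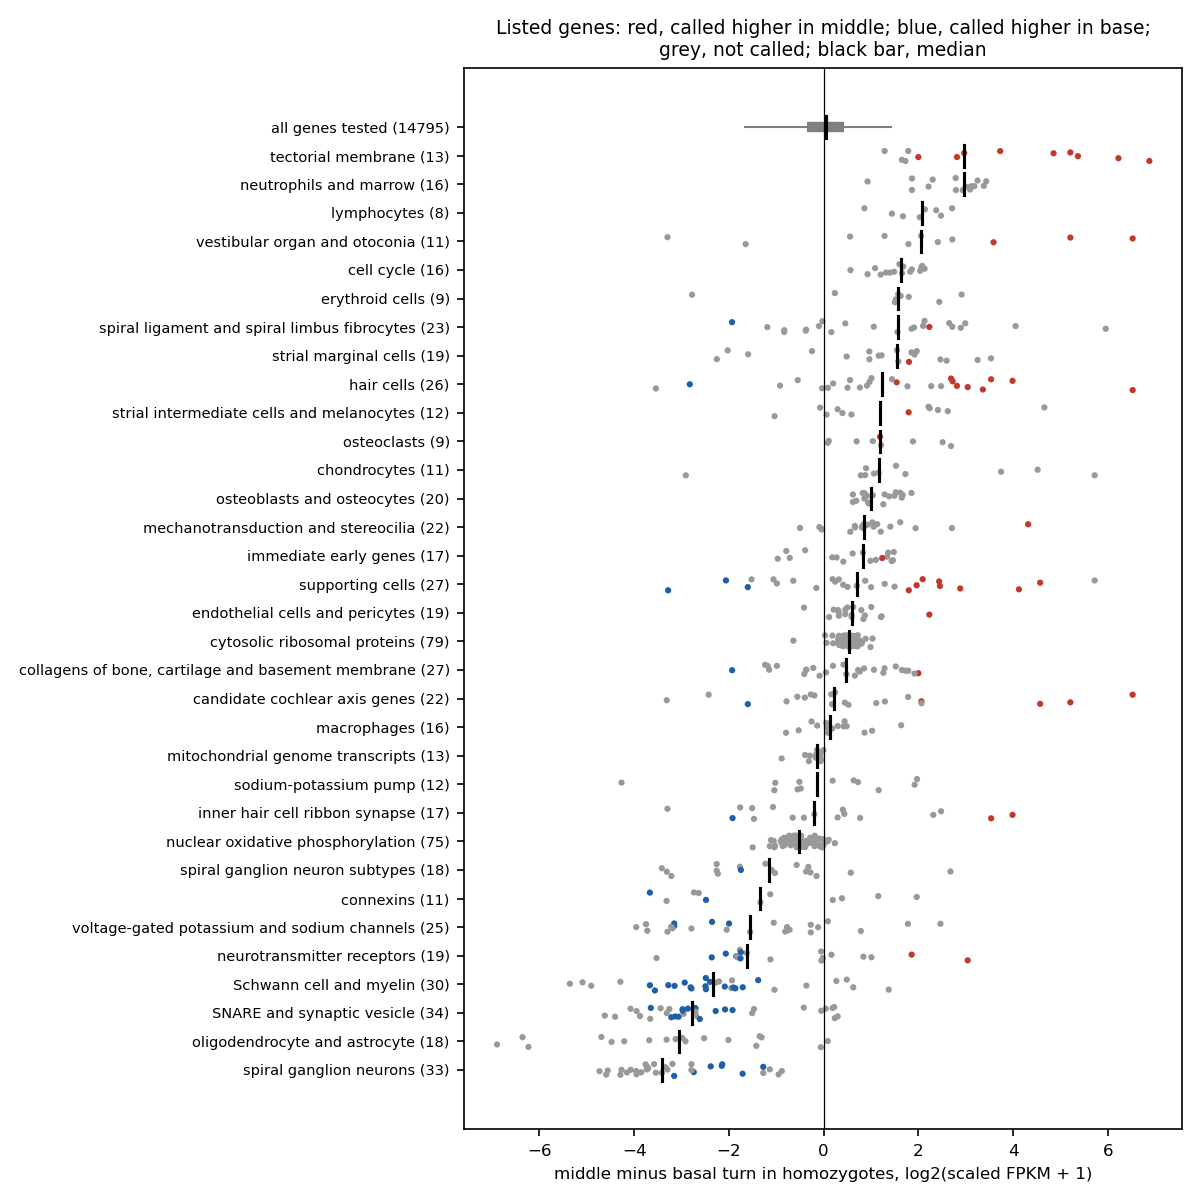
Difference between the turns (middle minus basal, log2(scaled FPKM + 1), horizontal axis) of each tested gene in the lists with at least 8 tested genes, in order of their medians (black bars), with the number tested in brackets. The top line gives all genes tested, with the median at 0.04, a thick bar from the 25th to the 75th percentile (-0.36 to 0.43) and a thin line from the 5th to the 95th (-1.69 to 1.44). Called genes are concentrated in the tectorial membrane and hair cell lists (red) and in the myelin and synaptic vesicle lists (blue).

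Genes studied for their gradients along the cochlear spiral did not move as one group. Of 25 such genes 22 were tested, and the median was 0.21, or 0.59 without homozygous basal repeat 2. There were 4 calls in favour of the middle turn and 1 of the basal turn, against 1.92% and 3.74% of all genes. The middle turn alone brought 2 of the 22 into the test, and the basal turn alone 1. Of the retinoid and growth factor genes, Inhba, a subunit of activin A, was at 3.23 and 4.67 scaled FPKM in the middle and 0.148 and 0.196 in the basal libraries (2.06 ± 0.37, adjusted p = 0.00844, limma). Its inhibitor follistatin, Fst, was at 3.85 and 5.37 in the middle and 2.07 and 0.672 in the basal libraries and did not pass (1.29 ± 0.63, adjusted p = 0.170, limma). Fst was at 49.3 and 24.2 in the homozygous apical turn, so the middle turn was intermediate. Crabp1, a retinoic acid binding protein, was called the other way at 0.395 and 0.357 against 3.39 and 2.96 (-1.60 ± 0.23, adjusted p = 0.00478, limma).

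Several of these genes were alike in the 2 turns within the spread. Bmp4 was at 11.5 and 13.3 in the middle and 6.99 and 15.0 in the basal libraries, and Rarb, a retinoic acid receptor, at 4.54 and 6.77 against 4.50 and 5.25. Cyp26b1, which breaks down retinoic acid, was at 3.16 and 2.24 against 1.82 and 2.71 but at 13.6 and 6.59 in the homozygous apical turn. Fgf10 was at 5.35 and 2.01 in the middle and 40.5 and 12.3 in the basal libraries (-2.43 ± 0.50, adjusted p = 0.0127, limma). Tbx2, a transcription factor of inner hair cells and other cochlear cells, was higher in the middle at 25.2 and 34.3 against 11.7 and 5.15 and did not pass, with an adjusted p of 0.0184 in limma. Hmga2, Inhbb and Lin28b did not reach the FPKM needed for the test.

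Genes of osteoclasts, blood and marrow were higher in the middle turn mainly through 1 library, and osteoblast genes less so. Of 18 neutrophil and marrow genes 16 were tested, 15 of them with both middle libraries above both basal ones, against 32.6% of all genes. Through the middle turn alone, 4 of these 16 entered the test, which fixed their order in advance. The median was 2.97 without a single call. Without homozygous middle repeat 1 it was 0.93. S100a8, a calcium-binding protein of neutrophils, was at 2109 and 120 scaled FPKM in the middle and 41.7 and 50.4 in the basal libraries (3.43 ± 1.54, adjusted p = 0.144, limma). Col1a1, the main collagen of bone, was at 756 and 31.9 against 43.4 and 67.0, and Acp5, of osteoclasts, at 151 and 1.91 against 3.67 and 1.28. In all of these, middle repeat 1 stood apart. Middle repeat 2 was near the basal libraries for Col1a1 and Acp5 but above both of them for S100a8. Of 20 osteoblast and osteocyte genes none was called, and 14 had both middle libraries above both basal ones, against 32.6% of all genes. Their median of 1.0 was 0.64 without homozygous middle repeat 1. Of 9 tested osteoclast genes 1 was called, Nfatc1 (7.43 and 5.40 against 2.24 and 2.20), against 1.92% of all genes. The osteoclast median of 1.19 was 0.39 without homozygous middle repeat 1. Among 9 tested erythroid genes and 8 tested lymphocyte genes none was called, with medians of 1.57 and 2.08, or 0.31 and 0.78 without homozygous middle repeat 1.

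Cell cycle genes followed the same library. Of 27 genes 16 were tested, none was called, and the median was 1.63, or 0.38 without homozygous middle repeat 1. Top2a, a DNA topoisomerase of dividing cells, was at 29.4 and 1.92 in the middle and 0.723 and 1.68 in the basal libraries, and Rrm2, of nucleotide synthesis, at 28.9 and 1.95 against 1.35 and 1.83. Macrophage genes, by contrast, were close to level, with a median of 0.14 over 16 genes and no call. C1qa, of the complement system, was at 47.6 and 30.1 against 27.8 and 46.5. Of the 11 tested chondrocyte genes none was called and the median was 1.16 (1.82 without homozygous middle repeat 1), with Cnmd, the cartilage protein chondromodulin, at 590 and 742 against 163 and 13.9 (adjusted p = 0.0423, limma).

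Housekeeping groups held no called gene. Over all genes tested, the 25th and 75th percentiles of the difference were -0.36 and 0.43. Over 75 nuclear genes of oxidative phosphorylation the median was -0.53 with no call, or -0.12 without homozygous basal repeat 2. In 36 of them both basal libraries lay above both middle libraries, and in none the reverse, against 29.4% and 32.6% of all genes. Atp5b, of the ATP synthase, was at 367 and 318 in the middle and 539 and 650 in the basal libraries (-0.79 ± 0.35, adjusted p = 0.139, limma). Over 79 ribosomal protein genes the median was 0.55 with no call, or 0.13 without homozygous basal repeat 1. Of these genes 26 were higher in both middle libraries and 1 in both basal libraries, against 32.6% and 29.4% of all genes. Rplp1 was at 718 and 578 in the middle and 314 and 519 in the basal libraries. The 13 messenger RNAs of the mitochondrial genome overlapped between the turns with 1 exception, and none was called. Of 27 collagen genes 1 was called in each direction, against 1.92% and 3.74% of all genes. These were Col11a1 and, higher in the basal turn, Col14a1 at 3.71 and 1.97 against 15.2 and 11.5.

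Among lists for tissue outside the cochlear turn, those of muscle, middle ear and cilia had few expressed genes in the 4 homozygous libraries. Of 16 skeletal muscle genes 4 were tested and none was called, and the list summed to 14.81 and 12.33 scaled FPKM in the middle and 17.95 and 30.25 in the basal libraries. Of 17 genes of middle ear and respiratory epithelium 4 were tested, and none was called. Those were keratins and the adhesion molecule Epcam, at 94.8 and 158 against 20.3 and 1.64, which cochlear epithelium expresses as well. Of 20 genes of motile cilia 4 were tested, and none was called. In wild-type basal repeat 2 the middle ear list summed to 3536 scaled FPKM and the cilia list to 118.6. In wild-type basal repeat 1 the sums were 242 and 12.3. Both libraries enter the contrasts of the genotypes. The middle turn alone brought 4 genes of the vestibular list into the test. Of 14 genes of the vestibular organs 11 were tested and 3 were called higher in the middle turn, against 1.92% of all genes. Of the 3, Ocm and Tectb are on the cochlear lists too. The third, Otol1, which encodes otolin of the otoconia, was looked up after its values were seen and was at 12.3 and 20.8 against 0.673 and 0.204. Immediate early genes gave 1 call among 17, against 1.92% of all genes called higher in the middle turn. It was Ier3 at 16.5 and 21.8 against 6.76 and 8.24.

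Whether the turns differed in the same way in wild-type was asked in the same fit. The wild-type turn difference uses other libraries, while the difference between the genotypes contains the same 4 homozygous libraries again. Between the wild-type middle and basal turns limma called no gene, with 2336 at an unadjusted p under 0.05. The difference between the genotypes in the turn difference was called for 1503 genes, 10.2% of those tested, 445 with a larger and 1058 with a smaller value of middle minus base in the homozygotes. With only the 8 middle and basal libraries in the limma fit this count was 0, and 4861 genes had an unadjusted p under 0.05. In 813 of the 838 genes called between the homozygous turns the wild-type difference had the opposite sign, against 78.8% of all genes tested. These were 261 of the 284 higher in the homozygous middle and 552 of the 554 higher in the homozygous basal turn.

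The nerve genes turned round as groups. The median over the spiral ganglion neuron genes was -3.41 in the homozygotes and 2.49 in wild-type. Of the 33 genes 17 passed the test of the difference between genotypes, against 10.2% of all genes tested. For the Schwann cell and myelin genes the medians were -2.34 and 1.60, and 21 of the 30 passed the same test. Slc17a7 had the largest difference between genotypes among the named nerve genes that passed (-8.06, adjusted p = 0.00998, limma), with wild-type values of 83.5 and 72.5 in the middle and 0.0270 and 14.1 in the basal turn. Spock3, a neuronal proteoglycan, was at 24.8 and 3.91 in the homozygous middle and 177 and 98.7 in the basal turn. In wild-type it was at 132 and 178 in the middle and 2.93 and 15.6 in the basal turn.

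Sensory genes were less uniform. Of the 13 tectorial membrane genes 7 passed the test of the difference between genotypes, against 10.2% of all genes tested. Of the 26 hair cell genes 12 did, 11 of them with a larger value in the homozygotes. Wild-type medians were -0.69 and -0.81. Ocm had a difference between genotypes of 9.13 (adjusted p = 0.00461, limma), and Rarres1, a retinoid-responsive gene, 7.40 (adjusted p = 0.00334, limma), with 69.6 and 63.1 in the homozygous middle and 3.36 and 1.49 in the basal turn against 3.12 and 9.93 in the wild-type middle and 20.6 and 142 in the wild-type basal turn. Vmo1 and Ceacam16 did not pass this test, with 6.63 and 5.79 and adjusted p of 0.0220 and 0.0114 in limma. Both were high in all 4 wild-type middle and basal libraries, so that the homozygous basal turn was the only one of the 4 groups in which they were low.

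**Figure D5:**
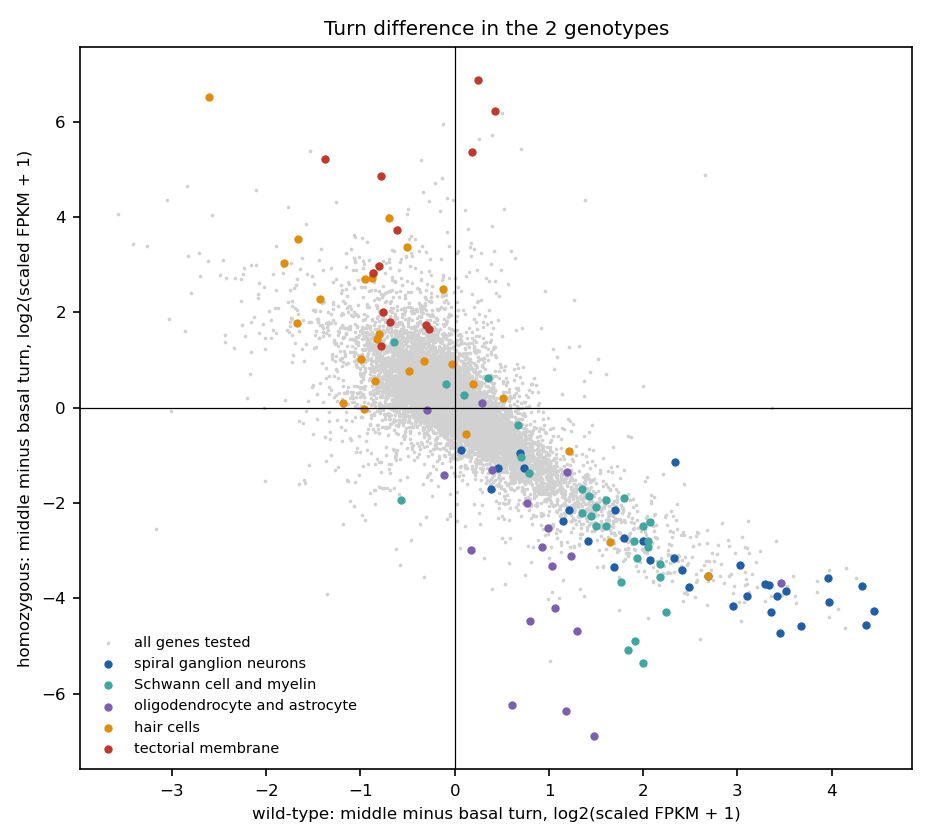
Difference between the turns (middle minus basal, log2(scaled FPKM + 1)) in homozygotes (vertical axis) against the same difference in wild-type (horizontal axis), with 1 grey point for each of the 14795 genes tested and coloured points for 5 lists. Neuron and myelin genes lie at the lower right, at medians of -3.41 and -2.34 against 2.49 and 1.60, and tectorial membrane and most hair cell genes lie above 0 in the homozygotes.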

How the data were processed

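RNA-seq was made from apical, middle and basal pieces of P14 cochleae of both genotypes, 12 libraries in all. Per the submitters' processing notes and the methods, reads were cleaned with fastp (0.20.0), aligned to mm10 with STAR (2.7.3a) and uniquely mapped reads were kept. The authors calculated FPKM with StringTie (2.0) and deposited them as 1 table of 37432 genes, which was the only file used. The counts of featureCounts (2.0.0) were not used here. The FPKM hold no steps of whole reads, so depth is unknown.

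FPKM were divided by median-of-ratios factors over 11552 genes at 1 FPKM or more in every library. Genes at 1 FPKM or more in at least 2 of the 4 homozygous middle and basal libraries were fitted in R 4.3.3 by limma 3.58.1, on log2(scaled FPKM + 1) and with 1 mean per genotype and turn (6 residual and 2.74 prior degrees of freedom, trend on), two-sided, with Benjamini-Hochberg adjustment over 14795 genes. A call needed an adjusted p below 0.01 together with more than a 2-fold difference. The same fit gave the difference between genotypes. Python 3.11.15 with matplotlib 3.10.9 drew the figures. The fit was tested on simulated data. No sample column was left out.

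The comparison, its members and the 37 gene lists were chosen with earlier results of these data known, and lists were described, not tested. Named genes were Gjb2 and Gjb6, the 12 largest called differences each way without overlap and averaging 5 scaled FPKM or more in the higher turn, in each list the 4 most abundant tested genes and the called gene of largest difference each way, 5 genes the study names, the axis genes, and the 5 largest called differences between genotypes each way. Genes outside this rule are marked as chosen after their values were seen. Alternatives were other pseudocounts (0.1 and 0.01), filters, scalings, fits, thresholds, a replicate block and leaving out each library. The numbers of the repeats did not pair libraries, as no source links libraries of the same number. Some named genes are not reported here. Ahsp, Dnai1 and Dnai2 were not found under these names in the table.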

Additional observations from a re-analysis of the deposited data

Results flagged for a closer look

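The difference between the turns was not the same in the 2 genotypes for 1503 genes by the limma test of the difference itself, with an adjusted p below 0.01 and more than a 2-fold difference. The test takes the turn labels of both genotypes as given, which were not tested. All values here are homozygous minus wild-type of the middle minus basal difference, on log2(scaled FPKM + 1). Among the named genes with a larger value in the homozygotes were the tectorial membrane genes Tectb (6.59) and Otog (5.64), the hair cell genes Ocm (9.13), Otof (4.69) and Myo15 (3.97), and Gjb6 (2.08). Emilin2 of the basilar membrane (6.68), Mia (6.92), Ces1d (5.55), P2rx2 (4.94) and Rarres1 (7.40) belonged to the same set.

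Genes of neurons and myelin were among those with a smaller value in the homozygotes. For the vesicle genes Slc17a7 and Sv2a it was -8.06 and -5.75, and for the myelin genes Gjb1 and Fa2h it was -5.43 and -5.73. Spock3 (-7.82), Chgb (-7.72), Asic3 (-7.52) and Map1a (-7.40), all known from neurons, had the most negative values after Slc17a7. Values for Rab6b (-5.98), Mapk10 (-5.70), Adam23 (-5.67), Atp2b3 (-5.54), Prkar1b (-5.48), Cntn2 (-5.37), Ttll7 (-5.29), Sgpp2 (-4.84) and Vat1l (-4.76) lay closer to 0.

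For 16 lists the median level of the list was ordered one way in every homozygous library and the opposite way in every wild-type library of the 2 turns, which was not tested. The difference between genotypes in these medians was -5.75 for spiral ganglion neurons, -5.08 for SNARE and synaptic vesicle genes, -4.19 for Schwann cells and myelin, -4.05 for connexins, -2.66 for voltage-gated channels, -2.49 for neuron subtypes and -1.47 for neurotransmitter receptors. It was 5.20 for the tectorial membrane, 1.56 for mechanotransduction, 1.76 for fibrocytes and 0.69 for the candidate axis genes. Lists of other tissues were among them too, with 4.29 for neutrophils and marrow, 4.17 for lymphocytes, 4.04 for middle ear epithelium, 2.55 for the cell cycle and 1.20 for osteoclasts.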

How the results depend on the processing

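The 838 calls between the homozygous turns became 2054 at an adjusted p under 0.05, 76 with no filter on low values, and 0 with only the 4 or only the 8 middle and basal libraries in the limma fit (4404 and 4429 genes at an unadjusted p under 0.05). Leaving out 1 library gave 0 to 1589 calls. The 1503 genes that differed between genotypes became 3179 at an adjusted p under 0.05, 422 with no filter and 0 with only the 8 libraries. They ranged from 323 without wild-type middle repeat 1 to 2288 without wild-type basal repeat 2. The ratio of the distance between turns to that between repeats was 1.81, and 2.04 over the 500 genes of highest variance. Other pseudocounts, scalings, a filter of 5 FPKM and library weights gave 658 to 999 calls. Of the 197 named genes tested 51 were called, and 0 named genes changed direction with a call under any alternative. Medians of lists moved by more than the spread between repeats in 9 of 37 lists with a pseudocount of 0.1 and in 7 with no filter, with 0 and 2 changes of sign. Changes of sign numbered 4 without homozygous basal repeat 2, 1 without basal repeat 1 and 2 without either middle repeat.

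With a replicate block in the fit of 12 libraries 317 genes were called, 311 of them among the 838, and with the block and only the 4 libraries 0 were called, with 3573 at an unadjusted p under 0.05 in limma. No source says that libraries of the same number share an animal, and the correlations of their deviations, from -0.45 to 0.47, do not settle it. That of the homozygous middle and basal turns was -0.26, and a crossed pairing, chosen after seeing the data, gave 0 calls and 5224 genes at an unadjusted p under 0.05 in limma. Sequencing depth is unknown, so values near 0 FPKM carry no counting error, and 2 libraries per turn leave little to estimate the spread within a turn.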

Other observations

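The homozygous apical turn was not part of the comparison, and its values are given for some of the same genes. Tectb was at 367 and 269 scaled FPKM there, above both middle libraries. Ocm was at 221 and 218, within the range of the middle turn.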
